A study of Mus musculus with 12 samples.

Results

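The CpGs described here are sites whose methylation after 5 divisions of activated B cells was less than 15 points below that of undivided cells. They were lower after 8 or more divisions in cells without CD138, with a level in CD138-positive cells close to that. They were chosen on measured values: in each of 2 hosts, methylation at Div5 less than 15 points below Div0 and at Div8neg at least 20 points below Div0, and a mean over the hosts at Div8pos within 8 points of Div8neg. Points are percentage points of methylated reads. The rule found 1318 members among 760348 CpGs with 10 or more reads in each of the 12 libraries (0.173%). It used 8 of those libraries, so the fall and the level with CD138 at these CpGs are a description and carry no test. The working description of such sites, a loss already complete without CD138, could not be tested at the members, whose own reads chose them. CpGs chosen in one host are another set, of which 5.15 and 6.63% met the rule in the other host. There they had mean differences of -8.70 and -10.6 points between Div8neg and Div0 and a further -7.93 and -8.10 between Div8pos and Div8neg. The second step was smaller beside the first where the fall was better supported (-34.8 and then -16.2 points at 23 CpGs, -15.2 and then -9.62 at 831). At the 2312 CpGs 51 to 500 bp from a member with at least 20% at Div0, some of them members, the 2 steps were -9.24 and -5.47 points. They were -4.95 and -4.98 at all CpGs that could have fallen. At the 2786 CpGs at that distance that were not members, whatever their Div0 level, they were -7.19 and -4.71, beside -2.86 and -3.25 at all CpGs.

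The libraries came from B220+ CD43- splenic B cells that were dye-labelled, moved into uMT mice, which lack mature B cells of their own, and challenged there with lipopolysaccharide (LPS), a bacterial product that drives B cells to divide. On day 3 they were sorted by dye dilution into undivided cells (Div0), cells after 1, 3 or 5 divisions (Div1, Div3, Div5), and cells after at least 8 divisions that lacked CD138 (Div8neg) or carried it (Div8pos). Each of the 6 fractions was sorted from both hosts, numbered 196 and 197, and all 12 libraries carry the same labels of strain (B6.SJL-Ptprca Pepcb/BoyJ), female sex, an age of 8 weeks, spleen and LPS. The series text names C57/BL6J for the naive donors, and the labels do not say whether the strain entry is that of donor or host. Hosts were the replicates, n = 2 for every fraction.

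Methylation of cytosine in CpG pairs is copied to the new DNA strand after replication by a maintenance methyltransferase, and is lost when copying fails over successive divisions or when TET enzymes oxidise the base. B cells that become antibody-secreting cells divide first, and CD138 (syndecan-1, the product of Sdc1) marks plasmablasts and plasma cells. Loss of methylation at enhancers and within genes accompanies that differentiation.

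Depth differed between hosts. Reads summed over the CpGs lay between 17969105 and 56775157 per library, and the median depth at members between 17 reads (Div8neg, host 196) and 51 reads (several libraries of host 197). Of the members, 18.2% had at least 20 reads in every library, against 32.4% of all CpGs. The defining promoters were thinly covered: 2 of 7 B cell markers, all 4 plasma cell markers, 1 of 4 T cell markers and 0 of 4 myeloid markers had a covered CpG within 500 bp of the start site. The promoter CpG of Cd4, a T cell co-receptor, had 75.6 to 80% at Div0 and 68.8 to 82.4% at Div8neg. Within 1 kb of the start sites of 12 T cell genes (133 CpGs) the mean was 31.7 and 33.2% at Div0 and 32.7 and 31.5% at Div8neg, and at 8 myeloid genes (82 CpGs) it was 22.0 and 21.2%, then 20.9 and 19.9%. The part of other cells in the Div8neg values was not tested. Since each level is an average over sorted cells, a partial level cannot tell a change in some cells from a smaller change in all.

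One member is shown among its neighbours in a promoter. It is printed because it was the 1 of 11 members close to a start site (250 bp upstream to 50 bp downstream) that could be placed on a RefSeq promoter. It is not a typical member: its mean at Div0 was 59.0%, while 992 of 1318 members had 80% or more, and 6.60% of members lay in promoters. Pik3cd encodes the delta catalytic subunit of phosphoinositide 3-kinase in leukocytes. The 250 bases before its start site in RefSeq (GRCm38.p6, chr4:149676090-149676339, minus strand) hold 19 CG pairs, of which the 9 in capitals were covered.

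Pik3cd: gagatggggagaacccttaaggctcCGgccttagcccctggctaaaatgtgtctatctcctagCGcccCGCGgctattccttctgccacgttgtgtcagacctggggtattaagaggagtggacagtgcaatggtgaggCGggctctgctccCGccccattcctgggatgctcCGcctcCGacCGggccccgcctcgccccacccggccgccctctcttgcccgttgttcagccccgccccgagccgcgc

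The member is the CG at base 140 (chromosome 4, 149050308 in mm9, promoter, 109 bp upstream). It stood at 62.5 and 55.6% at Div0, 57.1 and 54.5% at Div1, 49.3 and 53.5% at Div3, 50.0 and 47.6% at Div5, 28.1 and 25.9% at Div8neg and 25.5 and 36.5% at Div8pos, in hosts 196 and 197. The next covered CG, at base 153, read 36.0 and 35.2% at Div0 and 34.4 and 16.7% at Div8neg, where its hosts parted. The rule asked each host for a fall at the member, so nothing is read from its hosts being alike there. Between Div0 and Div8neg the mean over the hosts differed by -21.1 points at base 184, -16.4 at base 174, -12.6 at base 64, -11.5 at base 26 and -10.1 at base 153. It differed by -0.632 at base 71, -0.947 at base 180 and 9.28 at base 69. None of these 8 other covered CGs passed the test for Div8neg against Div0, although several had lower values.

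Over all 1318 members the mean level was 86.2 and 85.1% at Div0 in hosts 196 and 197, 82.1 and 81.7% at Div1, 81.1 and 80.4% at Div3, 82.1 and 79.6% at Div5, 57.9 and 58.5% at Div8neg and 58.8 and 58.5% at Div8pos. The 4 libraries after 8 divisions lay below the other 8. The rule largely fixed this, by asking for a low Div8neg and a mean Div8pos close to it, so nothing is read from that order. The mean difference between Div8neg and Div0 was -27.4 points (SD 1.26, n = 2 hosts), against -4.95 (SD 0.139) over the 461618 CpGs that had at least 20% at Div0 in both hosts and so could have fallen by 20. Most members lay close to the limit: the smaller of the 2 hosts' falls had a median of 22.7 points, was under 25 in 903 members and reached 40 in 22. There were 314 members within 1 point inside that limit and 325 CpGs within 1 point outside it, and the nearest values were 20.00 and 19.99. For the level with CD138, the nearest values on either side were 7.99 and 8.01 points, with 159 CpGs within 1 point inside and 159 outside. For the fall at Div5 they were 14.99 and 15.00 points, with 122 inside and 108 outside. The mean difference between Div5 and Div0 was -4.77 points (SD 0.980) at members, beside -1.34 (SD 0.0827) at CpGs that could have fallen.

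The loss was partial. At Div0, 992 members had 80% or more and 0 had less than 20%. At Div8neg, 43 were below 20%, 511 lay between 20 and 60% and 764 between 60 and 80%. At Div8pos, 41, 532 and 691 members fell in those ranges and 54 had 80% or more. The third condition kept 41.5% of the 3175 CpGs that met the first 2. Of the rest, 974 (30.7%) were more than 8 points lower with CD138 and 883 (27.8%) more than 8 points higher, so CpGs lay on both sides of the window in like numbers.

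By the quasi-binomial test of reads at all CpGs (adjusted p under 0.05 and at least 20 points, called lower or higher below), 580 members (44.0%) were lower at Div8neg than at Div0, against a background of 0.781% of all CpGs. The rule used that contrast, so nothing is read from it. For Div8pos against Div8neg, also used, 0 members were called, 2 had an unadjusted p under 0.05, and the background lower was 0.636%.

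**Figure D1:**
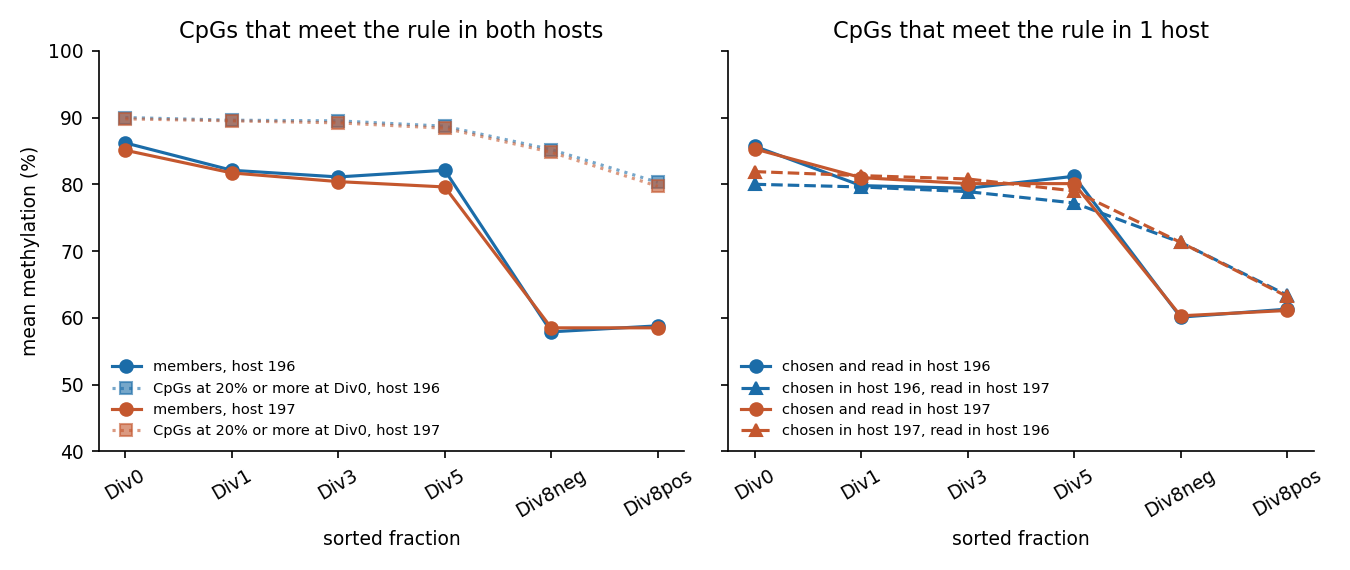
Mean methylation (%) by sorted fraction. Left, the 1318 members (circles) and all CpGs at 20% or more at Div0 (squares), 1 line per host. Right, CpGs that met the rule in 1 host, read in that host (circles, solid) and in the host that did not choose them (triangles, dashed). The held-out lines pass 71.3% at Div8neg and end at 63.4 and 63.2% at Div8pos, while the choosing lines are flat between the last 2 fractions.

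Applying the rule to 1 host and reading the CpGs in the other separated the choice from the measurement. Host 196 alone chose 9964 CpGs, of which 513 (5.15%) met the rule in host 197 too. In host 196 the 9964 went from 85.7% at Div0 to 60.1% at Div8neg and 61.3% at Div8pos. In host 197 the same CpGs had 80% in Div0, 79.6% in Div1, 78.9% in Div3, 77.2% in Div5, 71.3% in Div8neg and 63.4% in Div8pos. Thus a fall of 25.5 points at Div8neg where they were chosen was a fall of 8.70 in the held-out host. The difference between Div8pos and Div8neg was 1.12 points in the choosing host and -7.93 in the held-out host.

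Host 197 chose 7743 CpGs, and host 196 gave the same picture. Of these, 513 (6.63%) met the rule in host 196 too. The chosen CpGs had 81.9% in Div0, 79.0% in Div5, 71.3% in Div8neg and 63.2% in Div8pos of host 196. The level fell by 10.6 points to Div8neg and the further difference at Div8pos was -8.10, where host 197 itself gave -25.0 and then 0.783. The fall at Div8neg was in both directions larger than that of CpGs at 20% or more at Div0 in the choosing host. Those fell by 4.90 points in host 197 and 4.69 in host 196. The further difference with CD138 was larger too, beside -5.06 and -4.81 for those CpGs. In the held-out hosts the mean was thus lower again in the CD138-positive fraction. Div8neg and Div8pos were sorted on the same day, so an order in time between them was not tested. Div0 also differed between the readings: in host 196 the CpGs it chose stood at 85.7% at Div0 and 79.8% at Div1, while in host 197 they stood at 80 and 79.6%. The step between Div0 and Div1 was thus seen in the host whose Div0 library took part in the choice.

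Counted by CpG with Fisher's exact test in the held-out host, 257 of the 9964 (2.58%) were lower at Div8neg in host 197. The share was 0.514% of all CpGs and 0.828% of those at 20% or more at Div0 in the choosing host. For Div8pos against Div8neg in host 197, 66 (0.662%) were lower, against 0.303 and 0.454% of the same 2 sets. In the shallower host 196, 8 of 7743 (0.103%) were lower at Div8neg, against 0.0496 and 0.0808%, so these few calls lay near the second share. There, 2 (0.0258%) were lower at Div8pos than at Div8neg, against 0.0425 and 0.0666%. At an unadjusted p under 0.05, 833 (10.8%) were lower at Div8neg in host 196 and 27 higher, beside 2.60% of all CpGs lower and 3.95% of those at 20% or more at Div0 in the choosing host. Each such test compares 2 libraries of 1 host.

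The window on Div8pos was examined in the same way, with a split added after the data had been seen. CpGs of host 196 that met the first 2 conditions were divided by whether Div8pos lay more than 8 points below, within 8 points of, or more than 8 points above Div8neg in that host. Their Div8pos level in host 197 was below Div8neg in all 3 sets, by means of -15.6 (4298 CpGs), -7.93 (9964) and -4.92 points (13421). With the hosts exchanged the means were -19.3 (3579 CpGs), -8.10 (7743) and -4.23 (6684). The order of the sets carried over between hosts, and a level equal to Div8neg did not. Most CpGs chosen in 1 host did not meet the rule in the other, so this does not settle the level at the members. Restricted to the CpGs whose fall passed Fisher's exact test in the choosing host, also added after seeing the data, 23 CpGs of host 196 fell by 34.8 points to Div8neg in host 197 and differed by a further -16.2 at Div8pos. Those of host 197, 831 in number, fell by 15.2 and differed by a further -9.62.

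**Figure D2:**
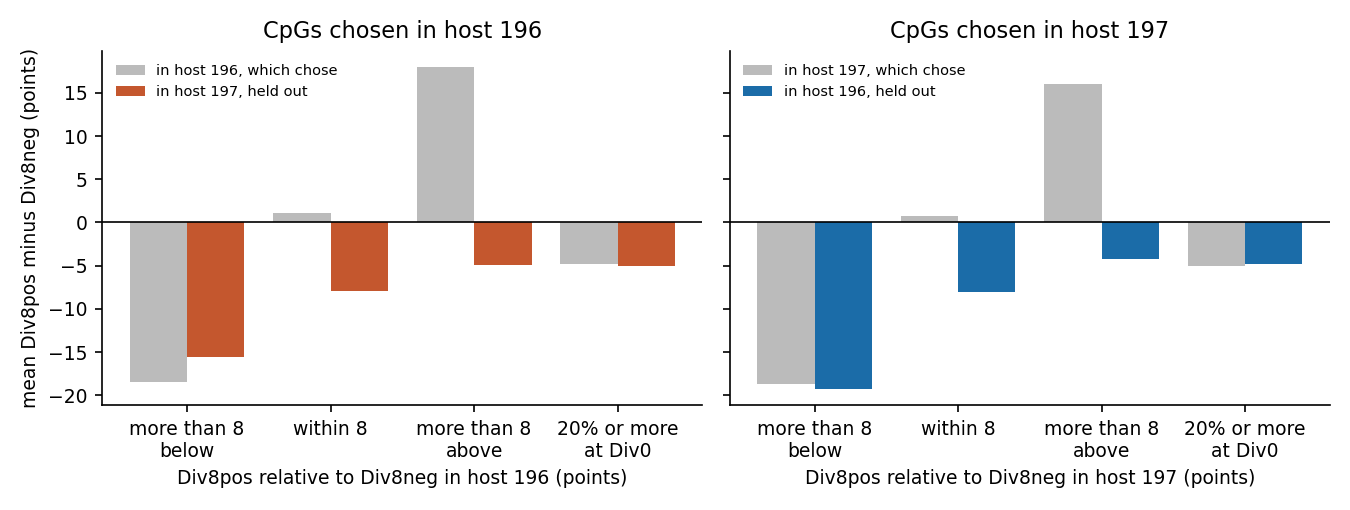
Mean difference in methylation between Div8pos and Div8neg (points) for CpGs that met the first 2 conditions in host 196 (left) or host 197 (right), by where Div8pos lay relative to Div8neg there, and for all CpGs at 20% or more at Div0. Grey bars are the choosing host and coloured bars the held-out host. All coloured bars are below 0, at -7.93 and -8.10 for the CpGs within 8 points.

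The held-out difference with CD138 was alike over most depths, while the held-out fall to Div8neg grew with depth. Where the lowest of the 4 libraries that chose a CpG in host 197 had 50 or more reads (1148 CpGs), the mean difference in host 196 was -11.8 points at Div8neg against Div0 and -7.51 at Div8pos against Div8neg. Where it had 10 to 19 reads (933 CpGs) these were -9.57 and -8.56. For the choice in host 196, 7674 CpGs at 10 to 19 reads gave -8.55 and -7.98 in host 197, and 359 at 30 to 49 reads gave -9.93 and -8.25. At 50 or more reads only 10 CpGs were left, with -20.1 and -5.70.

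Div1 and Div3 took no part in the rule. At the members Div3 minus Div1 was -0.911 points in host 196 and -1.25 in host 197, a mean of -1.08 (SD 0.238), beside -0.214 (SD 0.174) at CpGs at 20% or more at Div0. The exact permutation p, two-sided, was 0.333, the smallest that 2 libraries against 2 can give. The quasi-binomial test called 0 members, with 59 (4.48%) at an unadjusted p under 0.05, beside 6.05% of all CpGs, of which 70 (0.00921%) were called in either direction. Of the members, 1269 (96.3%) stood above Div8neg in both hosts at Div1 and 1291 (98.0%) at Div3, which the rule largely fixed by asking for a low Div8neg. The hosts lay a median of 4.45 points apart per member in Div0, 6.14 in Div1, 4.79 in Div3, 5.39 in Div5, 6.03 in Div8neg and 7.66 in Div8pos. At Div8pos, where the rule asked only for the mean of the hosts, 126 members differed between hosts by over 20 points.

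CpGs around the members mostly offered reads that had not chosen a member. A read covers 50 bp, and 2832 CpGs had another member 51 to 500 bp away. Of these, 182 (6.43%) were lower at Div8neg than at Div0, against the background of 0.781%. The shares were 1.34 and 0.138% without the Div0 library of host 197, 1.87 and 0.239% without its Div8neg library, and 0.565 and 0.0568% with limma on log2 ratios of reads. Without the CpGs that also had a member within 50 bp, a restriction added after the data had been seen, the share was 5.51% of 2761. Among the 2832, 2786 were not members, and 154 of those (5.53%) were lower. The rule had used the reads of the rest. Both ends of one fragment can be read, so neighbours may share molecules with a member. Like the members, neighbours were mostly methylated sites, and the share is also above the 1.28% of CpGs that had at least 20% at Div0.

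The fall was smaller with distance. Members that had another member nearby are included here. Among CpGs with at least 20% at Div0, the mean difference between Div8neg and Div0 was -14.2 points where the nearest other member was within 50 bp (987 CpGs, which share reads with it). It was -9.73 at 51 to 100 bp (294), -9.29 at 101 to 200 bp (1125), -7.96 at 201 to 500 bp (824), -5.94 at 501 to 1000 bp (525) and -5.05 at 1001 to 2000 bp (939), beside -4.95 for all such CpGs. The difference between Div8pos and Div8neg did not follow that order. It was -4.17, -3.99, -5.95, -5.35, -5.51 and -5.73 points over the same distances, beside -4.98 for all such CpGs. Neighbours within 500 bp thus had a larger mean fall at Div8neg than other CpGs. For Div8pos against Div8neg, 43 of the 2312 such CpGs 51 to 500 bp from a member (1.86%) were lower, beside 0.994% of all such CpGs. The means were -5.47 and -4.98 points.

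**Figure D3:**
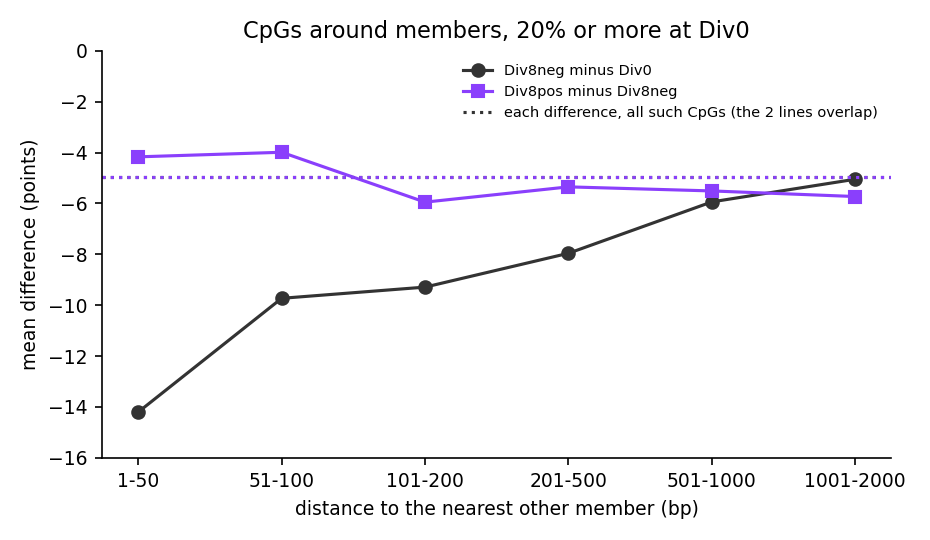
Mean difference in methylation (points) at CpGs with at least 20% at Div0, by the distance (bp) to the nearest other member, for Div8neg minus Div0 (black) and Div8pos minus Div8neg (purple). Dotted lines give all such CpGs. Members that had another member nearby are included. The black points run from -14.2 to -5.05 and the purple points stay between -3.99 and -5.95.

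Most members stood alone. Joining members at most 500 bp apart left 1231 single CpGs, 35 pairs and 5 runs of at least 3, and the longest runs had 4. Another member lay within 500 bp of 87 members and within 50 bp of 47 of the 1318. Of all 760348 CpGs, 1038 had another member within 50 bp, as had 987 of the 461618 at 20% or more at Div0. Members thus lay near one another more often than other CpGs did, though sites within 50 bp share reads. By the deposited annotation they lay in introns in 43.9% (579), between genes in 44.5% (586), in exons in 9.79% and in promoters in 6.60% (87). Among CpGs at 20% or more at Div0 those shares were 38.0, 46.2, 15.2 and 4.72%. The median distance to a start site was 16570 bp, beside 22736. No other covered CpG lay within 100 bp of 47.0% of members, beside 29.6% of CpGs at 20% or more at Div0.

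A pair of other loss patterns gives a scale for these shares. CpGs that met the first 2 conditions and were at least 20 points lower again at Div8pos (427, losses that go on) were intronic in 51.8% and isolated in 32.8%. CpGs that fell by 20 points in each host at Div8pos but by less than 15 at Div8neg (10842, losses seen at Div8pos only) were intronic in 41.7% and isolated in 48.4%. In both respects the members were closer to the second. These shares are descriptions without a test. Chromosome 6 held 91 members, 0.390% of its CpGs at 20% or more at Div0, and chromosome 12 held 45, 0.223%, with the other autosomes between.

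**Figure D4:**
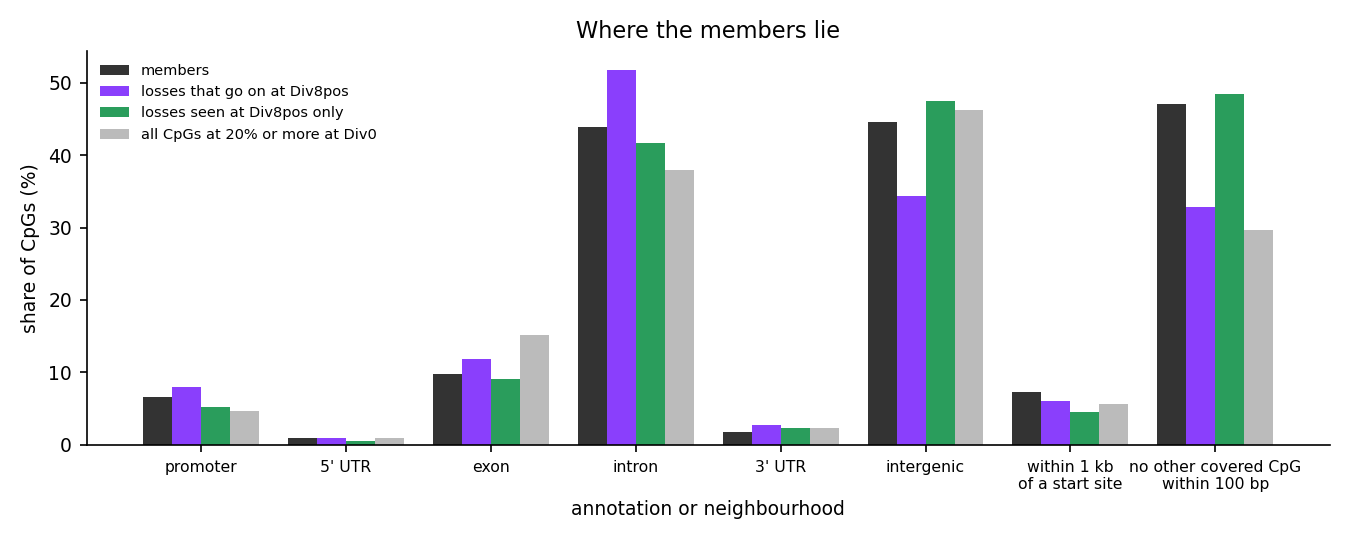
Share of CpGs (%) in each annotation class, within 1 kb of a start site, and with no other covered CpG within 100 bp, for the members, the 2 other loss patterns and all CpGs at 20% or more at Div0. Classes overlap. Members reach 47.0% for isolated CpGs and 43.9% for introns.

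Runx3, a Runt-family transcription factor of lymphocytes, held the most members, 6 of its 223 covered CpGs, and the run with the widest support. Its 4 members between 134711268 and 134711475 on chromosome 4 (mm9, from an exon into the next intron, 2856 to 3063 bp after the start site) averaged 85.6 and 86.6% at Div0 in hosts 196 and 197. They had 89.4 and 86.9% at Div1, 86.1 and 88.5% at Div3, 84.9 and 83.7% at Div5, 53.0 and 39.5% at Div8neg and 46.1 and 39.9% at Div8pos. Up to Div5 every library lay at or above 83.7%, and all 4 libraries after 8 divisions lay at or below 53.0%. The rule largely fixed that order. The 10 other covered CpGs within 250 bp went from 90.7% in Div0 to 86.0% in Div5, 53.7% in Div8neg and 38.5% in Div8pos. All 10 were called lower for Div8neg against Div0 and 1 was lower again at Div8pos. The mean of the 10 was lower again with CD138. CpGs this close can share reads or fragments with the members that chose the place. A loss shared around the members was thus not tested apart from their own reads. The single CpG at 134711413 had the largest fall of the members with at least 20 reads in the 8 libraries, from 96.9 and 91.7% at Div0 to 47.4 and 27.7% at Div8neg and 39.3 and 37.5% at Div8pos.

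Mfap5, a microfibril-associated matrix protein, held 4 members within 37 bp of an exon (chromosome 6, 122478348 to 122478384). They averaged 91.4 and 85.9% at Div0, 86.5 and 84.8% at Div5, 60.4 and 50.2% at Div8neg and 61.4 and 56.5% at Div8pos. Sites this close share reads, so the 4 are not independent, but their levels differed. The member at 122478348 had a mean over the hosts of 72.4% at Div0 and 26.0% at Div8neg. The others had between 89.2 and 97.7%, then between 61.6 and 68.7%. The 1 other covered CpG went from 99.0% at Div0 to 53.0% at Div8neg and 46.1% at Div8pos.

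At Mid1, an X-linked ubiquitin ligase bound to microtubules, 3 members (166436195 to 166436234) averaged 68.4 and 67.6% at Div0, 58.2 and 56.9% at Div5, 30.9 and 36.7% at Div8neg and 30% in both at Div8pos. The lowest depth there was 127 reads and the median 403, well above the other runs. The gene crosses the boundary of the pseudoautosomal region in mice and reads may come from copies, so its levels are uncertain.

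Ube2v1, a ubiquitin-conjugating enzyme variant, had 3 intronic members with 95.5 and 95.3% at Div0, 89.2 and 88.9% at Div5, 66.6 and 66.8% at Div8neg and 68.6 and 61.3% at Div8pos. The hosts were within 1 point of each other at Div0, Div5 and Div8neg. Katnal1, a microtubule-severing protein, had 3 with 93.9 and 92.8% at Div0, then 72.2 and 89.1% at Div1, 64.7 and 70.5% at Div8neg and 64.4 and 63.7% at Div8pos. Neither of its 2 other covered CpGs was lower at Div8neg, and its lowest depth was 11 reads.

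Among the pairs, Hk2, a hexokinase, fell the most, from 84.4 and 87.2% at Div0 and 86.4 and 80.7% at Div5 to 33.8 and 40.3% at Div8neg and 36.5 and 31.0% at Div8pos. Its 3 other covered CpGs averaged 84.0% in Div0, 61.7% in Div8neg and 66.0% in Div8pos, and none of them was called lower at Div8neg. Hpn, a membrane serine protease, went from 81.0 and 82.7% at Div0 to 42.5 and 43.7% at Div8neg and 40.4 and 39.3% at Div8pos, and 5 of 7 other covered CpGs were lower at Div8neg. Zfp444, a zinc finger protein, went from 96.4 and 96.4% to 53.3 and 58.3%, then 60.4 and 49.1%. The neighbouring CpGs called lower at Div8neg thus ranged from all 10 at Runx3 to 0 of 3 at Hk2, where their mean was nonetheless lower.

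**Figure D5:**
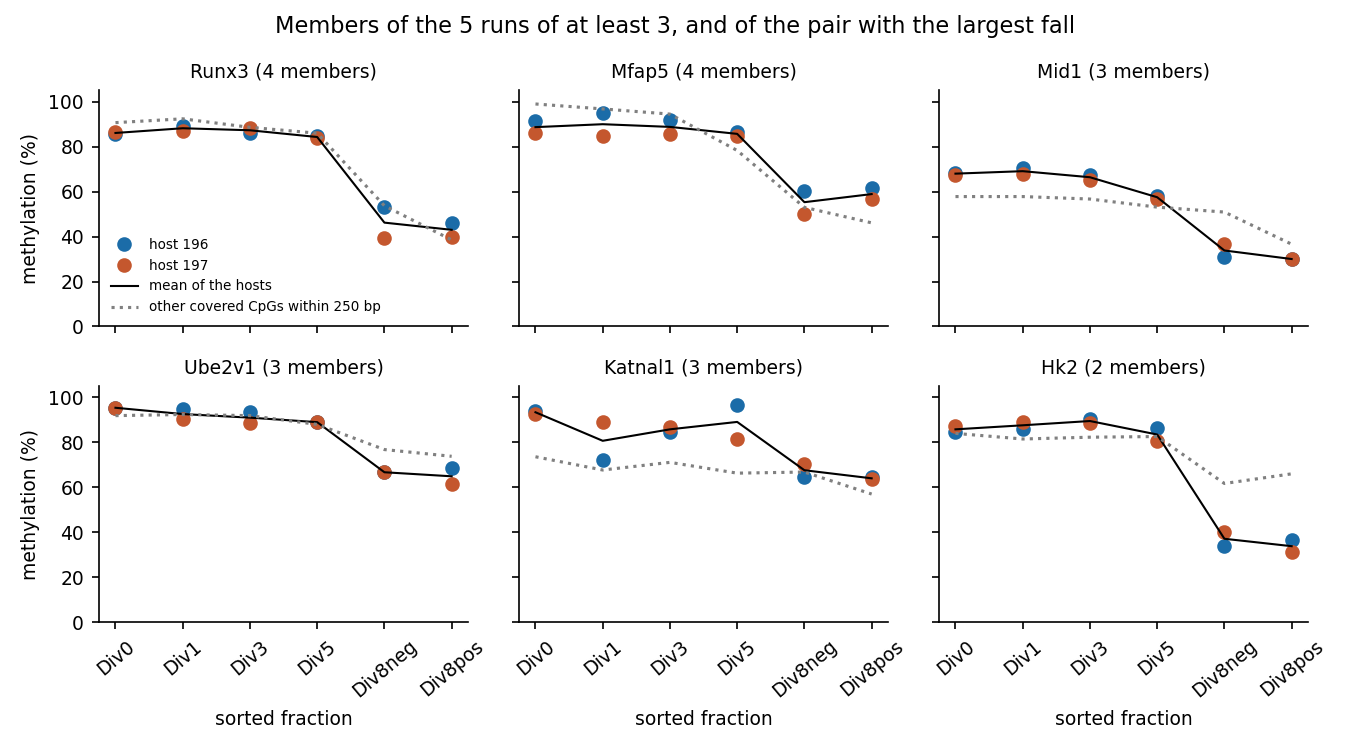
Mean methylation (%) by sorted fraction of the members in the 5 runs of at least 3 and in Hk2, the pair with the largest fall, host 196 in blue and host 197 in orange, with the mean of the hosts as a line. The dotted grey line is the mean of the other covered CpGs within 250 bp. At Runx3 the grey line continues to 38.5% at Div8pos while the members end at 43.0%.

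Single members with large falls and good depth lay at several other genes. An intergenic CpG nearest to Adrb1, the beta-1 adrenergic receptor, had 95.0 and 90.6% at Div0, 60.9 and 38.2% at Div8neg and 40.6 and 46.2% at Div8pos. At Serp1, an endoplasmic reticulum stress-associated protein, a promoter CpG went from 96.3 and 83.3% to 50.0 and 46.2%, then 48.3 and 50.0%. It was at 69.6 and 56.5% at Div3 and 83.9 and 70.6% at Div5, so the low level at Div3 did not hold at Div5. An exonic CpG of Cnp, a cyclic nucleotide phosphodiesterase, went from 93.5 and 89.9% to 54.8 and 48.8%, then 45.8 and 42.9%. At Pggt1b, a subunit of a protein prenyltransferase, the hosts had 100% each at Div0 and 50.0 and 71.1% at Div8neg. Etohd2 went from 93.8 and 96.4% to 52.4 and 60.2%, then 62.3 and 65.7%. Their hosts differed most at Div8neg for Adrb1 and Pggt1b and by less than 8 points there for Cnp, Serp1 and Etohd2.

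In all, 17 genes had at least 3 members. Those named by the rule for the genes with most members also include Casc1, Pxn, Ebf1, Hic2 and A930011G23Rik, each with 3 outside a run of 3. Pxn encodes paxillin, an adaptor of focal adhesions, and its intronic member at 115971594 on chromosome 5 started low, at 30 and 30.9% at Div0, 6.06% in both hosts at Div8neg and 10.4 and 13.8% at Div8pos. Altogether, 1063 gene symbols had a member and 102 had at least 2.

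Promoters, as the deposited annotation marks them, held 2 members at 3 genes. Zfp444 was not among them, though its 2 members lay 69 bp after and 270 bp before a start site. Rpsa, a component of the small ribosomal subunit, had its 2 members at -635 and -639 bp from the start site. The member at 120036244 on chromosome 9 had 88.9 and 77.4% at Div0, 81.2 and 80% at Div5, 35.7 and 45.5% at Div8neg and 50.0 and 42.6% at Div8pos. Kcnn4, a calcium-activated potassium channel of lymphocytes, had members at -1054 and -1181 bp, and the nearer had 95.2 and 98.1% at Div0, 65.4 and 66.7% at Div8neg and 65.9 and 70.9% at Div8pos. Sh3glb1, an endophilin, averaged 77.0 and 84.5% at Div0, 33.8 and 52.1% at Div8neg and 41.9 and 52.6% at Div8pos, with hosts further apart than at Kcnn4.

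Genes of the lists for the tissue and stimulus held few members in number, though not always a low share. Within 50 kb of a start site, 988 of 316354 CpGs at 20% or more at Div0 were members (0.312%). B cell receptor and PI3K signalling genes had 9 of 1018 (0.884%), over 7 of 32 measured genes, among them Itpr1, Nfatc1, Pik3ap1, Pik3cd, Pik3r5 and Prkcb. B cell identity genes had 4 of 800 (0.5%), at Bach2, Ebf1, Foxp1 and Pax5. The Toll-like receptor and NF-kB list had 3 of 623 (0.482%, Irak2, Nfkb1, Nfkbia). Secretory and unfolded protein response genes had 2 of 331 (0.604%, Pdia3, Ssr1) and DNA methylation genes 3 of 561 (0.535%, Dnmt3a, Tet1). Plasma cell genes had 1 of 625 (0.16%), at Tnfrsf13c, and migration genes 1 of 216 (0.463%), at S1pr2. The T cell list had 1 of 395 (0.253%, Cd3e) and the myeloid list 1 of 176 (0.568%, Marco). Only the plasma cell and T cell lists had a share below 0.312%. Counts this small are a description, and the lists were not compared by a test.

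Of the list genes, 3 held at least 2 members within 50 kb of a start site (Ebf1 held 1 there and its other two further away). Pik3r5, a regulatory subunit of PI3K gamma, had 2 intronic members averaging 97.4 and 90.9% at Div0, 91.1 and 92.9% at Div5, 50.9 and 61.0% at Div8neg and 59.8 and 49.1% at Div8pos, with the hosts in opposite order in the last fractions. At Itpr1, the inositol trisphosphate receptor that releases calcium after antigen receptor signalling, the deeper member (108183424 on chromosome 6) had 67.7 and 75% at Div0, 54.3 and 61.5% at Div5, 46.2 and 43.5% at Div8neg and 46.2 and 42.4% at Div8pos. Its levels at Div1, 52.9 and 57.7%, were already below Div0. Tet1, an enzyme that oxidises methylated cytosine, had 2 intergenic members upstream. The one at 62353184 on chromosome 10 had 100 and 89.8% at Div0, 94.1 and 89.6% at Div5, 66.7 and 67.6% at Div8neg and 77.8 and 71.6% at Div8pos. Of these, Pik3r5 showed the deepest fall, and at all 3 the lowest depth of a member was under 15 reads.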

How the data were processed

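The deposited table gives, per the file headers and the note deposited with it, methylated and unmethylated read counts per CpG in 12 reduced representation bisulfite libraries (MspI and TaqI digestion, 50 bp single-end reads, per the labels' protocols). The authors joined strands and kept CpGs with at least 10 reads in all 12 libraries. Bismark, Bowtie2 and mm9 are named in the submitters' processing notes, with versions not given in the sources used. Annotation and distances are the table's own. PCR was used and no molecular identifiers are named, so tests on reads cover counting error between molecules only in part.

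Members followed the rule in the report. Members, gene lists and the rule for named genes (longest runs, genes with the most members, deep members with the largest falls, promoters with at least 2 members, list genes) were chosen with earlier results of these data known. A quasi-binomial logistic model was fitted to the counts of every CpG over all 12 libraries (dispersion 1.16 from squeezeVar of limma 3.58.1, with infinite prior degrees of freedom), with Benjamini-Hochberg adjustment over 760348 CpGs, an adjusted p under 0.05 and at least 20 points. Held-out hosts used Fisher's exact test per CpG (scipy 1.17.1), adjusted likewise. Methods were tested on simulated data.

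Same-numbered libraries came from the same host animal, per the labels, which pairs them. Their deviations from the fraction means had correlations between -0.00177 and 0.00555 over 15 pairs of fractions. The fit with host as a term was changed after its first result had been seen: with the prior dispersion estimated from all CpGs, it recovered 0% of the 50-point changes among 50000 simulated CpGs for Div8neg against Div0, and with the prior from CpGs with no fraction fitted at 0 or 1 it recovered 97.0%. The main model kept the prior from all CpGs, and results under both are given with the other settings. Coverage differed between all pairs of libraries beyond sampling noise, with a chi-square per degree of freedom of at least 1.20. Values at some of the marker and list genes are not reported here, so the marker values given are not the full set.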

Additional observations from a re-analysis of the deposited data

How the results depend on the processing

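The number of members followed the limits. It was 240 with at least 20 reads in all libraries, 808 with Div8pos within 5 points, 768 with Div5 less than 10 points below Div0 and 116 with a fall of 30 points, instead of 1318. Leaving out a library, with its conditions asked of the other host, gave between 1163 and 16100, the highest when the Div0 library of host 197 was dropped (9350 for that of host 196, 6613 and 10402 for the Div8neg libraries of hosts 196 and 197). Runs of members were 2 instead of 5 at 20 reads.

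The replicate block (host as a term) moved each of these totals by less than 1.5 times, and which CpGs were called was not compared: it gave 5786 lower CpGs at Div8neg instead of 5935, 42.6% of members instead of 44.0% and 6.32% of CpGs near a member instead of 6.43%. As first fitted, with the prior dispersion from all CpGs, the replicate block had given 7 lower CpGs, 0.0759% of members and 0% near a member. The prior was changed after this had been seen, for the reason given with the processing. The main model with the changed prior gave 6026 CpGs, 44.5% and 6.43%.

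Lower CpGs at Div8neg numbered 9114 with a limit of 10 points, and 2199 at 20 reads, where 78.3% of 240 members were lower. With limma on log2 ratios of reads there were 432, with 0.986% of members and 0.565% near a member. Leaving out 1 library of Div0 or Div8neg gave between 1046 and 5145 lower CpGs, between 2.88 and 25.1% of members, and between 1.34 and 5.79% near a member. The lowest came from dropping the Div0 library of host 197 (1821 CpGs, 6.60% of members and 1.87% near a member for its Div8neg library). The dispersion of well covered CpGs was no higher than the common value, so that alternative could not differ. Members called at Div3 against Div1 were 0 in every setting run.

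For CpGs chosen in host 196 and read in host 197, the share lower at Div8neg was 6.75% at 20 reads, 6.67% for falls of 30 points and 65.2% where the fall had passed Fisher's exact test, a setting added after seeing the data. The mean differences were -13.0 and -34.8 points in the latter 2. At Div8pos against Div8neg the shares were 1.32, 1.20 and 13.0%, and the means -7.77, -10.7 and -16.2. For CpGs chosen in host 197 and read in host 196, the shares lower at Div8neg were 0.856, 0.386 and 0.602%, and 0.0406% with Div8pos within 5 points, with means of -16.2 for falls of 30 points and -15.2 after the test. At Div8pos against Div8neg they were 0.132, 0.0966, 0.120 and 0%, with means of -7.09, -10.8 and -9.62 for the first 3. In every setting run the held-out mean at Div8pos was below Div8neg. The causes of these shifts were not tested. Of 97 values under alternative settings, 47 stayed within 1.5 times (counts and shares) or within 1 SD between hosts (means). The others are given above, those without 1 library as ranges.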
